A study of Mus musculus with 4 samples.

Results

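Interferon-stimulated genes are the genes that cells switch on in response to interferons, and a set of 39 of them was followed through single-cell RNA-seq libraries of CD11b+ brain cells. The members were chosen by gene symbol, and all 39 were found among the 32285 genes counted in the mouse libraries. The groups were Il6 wild-type (+/+) and Il6 knockout (-/-) mice of 8 to 12 weeks, either sham-operated or with a cerebrovascular injury (CVI), taken at day 6. The injury combines intravenous microspheres with pulsed ultrasound over a thinned patch of skull. A group is a single library with no replicate, and the labels do not say whether it came from 1 mouse or from pooled mice. No test against the spread between mice was therefore possible within a comparison of 2 libraries, and every value describes these 4 libraries. A test of injury over both genotypes, 2 libraries against 2, was not run. Brain tissue from a 4 mm punch was dissociated and cleared of myelin, and CD11b+ myeloid cells were bound to magnetic beads. The sample labels date the controls 6 days after sham surgery, while the extraction protocol calls them uninjured. Mild and severe forms of the injury appear in the protocols, and which of them these mice received is not stated. The mice carry no Cre and no transgene by the labels.

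Type I interferons bind a receptor on the cell surface whose kinases activate transcription factors, and a complex that includes STAT2 and IRF9 then binds interferon-stimulated response elements (ISREs) in the promoters of target genes. The products of these genes detect viral nucleic acid, block translation or budding of viruses, modify proteins with ISG15 or feed back on the pathway. In the brain, microglia, the resident macrophages of the parenchyma, and endothelial cells, which line the vessels, are both known to respond to interferons.

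Promoter sequences are shown for the Ifit genes, which mark strong induction below, for Rsad2 and Isg15, which were higher in the strongly induced cells, and for Gbp7, which was lower after injury. Each line holds the 130 bases just upstream of the RefSeq start site (GRCm38.p6), 5′ to 3′ on the strand of the gene, with matches to the ISRE core on either strand in capitals. The core searched was GAAA, any 2 bases and GAAA again, which reads TTTC, any 2 bases and TTTC on the other strand. The last bases of the Ifit1 window lie inside the gene as GENCODE places it, and Ifit2 has 2 start sites in the RefSeq table, of which 1 is shown.
Ifit1, chr19:34640759-34640888 (plus strand): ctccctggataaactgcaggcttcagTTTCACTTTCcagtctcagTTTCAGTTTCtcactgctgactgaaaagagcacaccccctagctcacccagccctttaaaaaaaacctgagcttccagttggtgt
Ifit2, chr19:34550564-34550693 (plus strand): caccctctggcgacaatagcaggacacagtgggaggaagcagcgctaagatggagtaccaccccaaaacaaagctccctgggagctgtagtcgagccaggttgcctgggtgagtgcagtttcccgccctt
Ifit3, chr19:34583399-34583528 (plus strand): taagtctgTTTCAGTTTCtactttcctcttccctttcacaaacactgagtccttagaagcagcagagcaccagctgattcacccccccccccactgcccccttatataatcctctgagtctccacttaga
Rsad2, chr12:26456453-26456582 (minus strand): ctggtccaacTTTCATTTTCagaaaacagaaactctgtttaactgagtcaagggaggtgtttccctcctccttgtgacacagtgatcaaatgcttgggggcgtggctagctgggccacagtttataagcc
Isg15, chr4:156200819-156200948 (minus strand): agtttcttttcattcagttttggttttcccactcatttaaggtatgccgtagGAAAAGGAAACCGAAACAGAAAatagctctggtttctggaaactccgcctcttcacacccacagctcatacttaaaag
Gbp7, chr3:142530206-142530335 (plus strand): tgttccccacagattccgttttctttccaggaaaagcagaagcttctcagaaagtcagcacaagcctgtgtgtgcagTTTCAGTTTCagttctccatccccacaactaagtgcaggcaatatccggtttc
The Ifit1 window held 2 matches and the Isg15 window 3 overlapping ones. Ifit3, Rsad2 and Gbp7 had 1 each in these windows, and none of these letters stood in the Ifit2 window. The same windows of Irf7, Ifitm3 and Lgals3bp, which are not shown, held no match either. Irf7 and Ifitm3 were also higher in the strongly induced cells, so the windows shown do not stand for the set.

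A promoter table was at hand for 33 of the 39 members, covering 250 bases before to 50 bases after the start site; Usp18, Zbp1, Ifi204, Ifi27l2a, Rtp4 and Parp14 were not in it. The ISRE core was present in 17 of the 33 (51.5%), against 1079 of the 27025 genes of the table (3.99%). The core of the gamma-activated site, TTCNNNGAA, which reads the same on both strands, was present in 8 of the 33 (24.2%), against 2582 of all genes (9.55%). The median log2 ratios of members with and without the ISRE core, injured against sham in microglia-like cells, were 0.79 and 0.88 in wild type and 1.08 and 1.18 in the knockout-labelled pair. A match is a description of letters and not a binding site.

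The libraries held 2682 to 4731 cell barcodes, against the 4000 cells aimed at, with 15222380 to 40336067 UMIs (unique molecules) each, and 957 wild-type sham, 2883 wild-type injured, 1362 knockout-labelled sham and 2549 knockout-labelled injured cells were analysed after filtering. Il6 RNA was higher in both libraries labelled knockout (25.3 and 22.0 CPM, sham and injured) than in the wild-type ones (10.6 and 4.65 CPM). Which exon was deleted is not stated by the labels, so that 3′ counts cannot check the genotype, and these libraries are called knockout-labelled. The 2 sham libraries shared 135 barcodes, 19 of them among analysed cells of both, and other pairs shared 2 to 14. Leaving out every cell whose barcode occurred in another library moved no count of called members by more than 1.5 times. Cells were clustered without the 39 genes and without listed genes of the interferon pathway, and clusters were named from marker genes. Another 16 genes correlated with the Ifit genes, Ifi206 and Ddx60 among them, were left out only in an alternative. The clusters are therefore not free of the interferon response. Microglia-like cells numbered 522, 2017, 858 and 1944 in the wild-type sham, wild-type injured, knockout-labelled sham and knockout-labelled injured libraries. Macrophage or monocyte-like cells numbered 542 and 67 in the injured libraries, wild type first, and 1 and 2 in the sham libraries. Border-associated macrophage-like cells, the macrophages of the meninges and vessel walls, numbered 100, 65, 66 and 99. Clusters that stayed unnamed held 287, 133, 377 and 294 cells and were not analysed further. Endothelial-like cells numbered 28, 82, 48 and 134 despite the CD11b selection, and all 10 endothelial markers were detected in each library. All 10 microglia markers were detected in the microglia-like cells of each library, with summed levels of 14852 to 24645 CPM.

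In microglia-like cells most members were higher after injury. In wild type 35 of the 39 had a log2 ratio above 0, and the 4 below were Gbp7, Gbp3, Igtp and Herc6. In the knockout-labelled pair 37 were above 0, and Gbp7 and Gbp3 were below. Levels are given in CPM, the UMIs of a gene summed over the cells of a class and scaled to the total UMIs of that class. Summed over the 39 genes, the level was 798 CPM in wild-type sham and 3537 CPM in wild-type injured cells, and 731 and 3847 CPM in the knockout-labelled pair. A member was called when its log2 ratio, with 10 CPM added to both sides, reached 1 or -1 and it passed a minimum of 20 CPM in 1 of the libraries and 50 UMIs over the class. In wild type 30 members passed the minimum, of which 19 were called higher and 1 lower, against 4.2% higher and 10.1% lower over the 6258 genes tested. In the knockout-labelled pair 32 passed, of which 21 were called higher and none lower, against 2.65% and 1.53% over 6143 genes. The median log2 ratio over all 39 members was 0.97 in wild type and 1.47 in the knockout-labelled pair, against -0.32 and -0.21 over all genes tested. Since the minimum admits low genes through the library where they are high, the medians over all 39 members are the ones given. These comparisons set 1 library against 1 library, and the intervals beside the ratios are exact 95% intervals for counting error only.

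**Figure D1:**
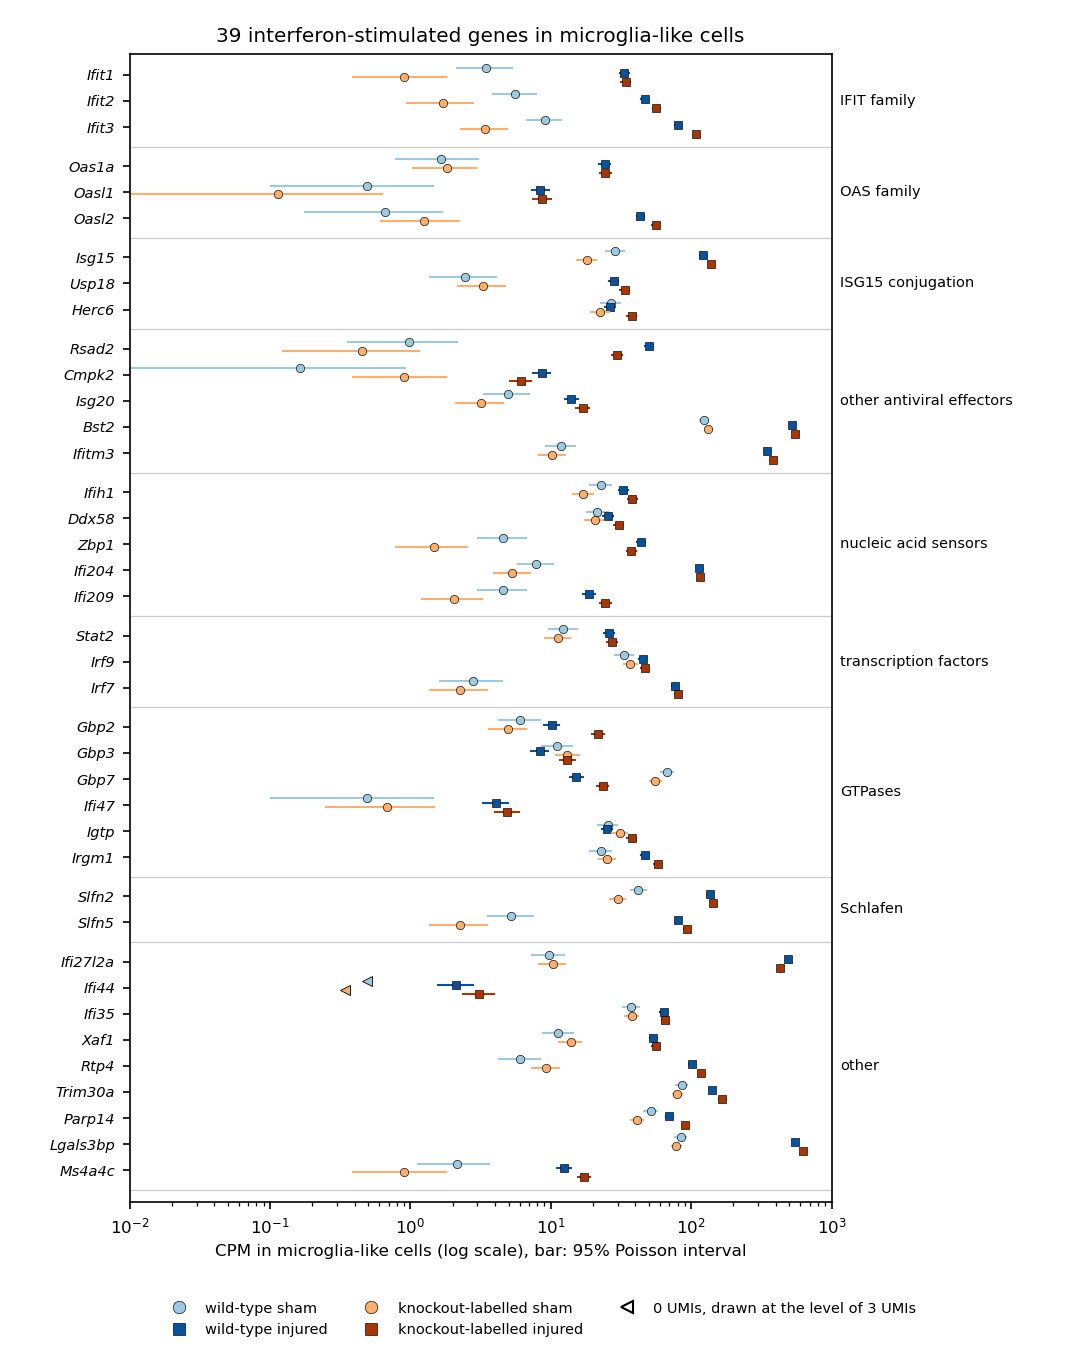
Level of each of the 39 genes in microglia-like cells of the 4 libraries, in CPM on a log axis, with 95% Poisson intervals and the genes grouped by role. Most injured libraries (squares) stand right of the sham ones (circles); Gbp7 is the reverse, at 66.9 and 55.4 CPM in the sham libraries and 15.2 and 23.5 CPM in the injured ones.

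The IFIT proteins bind foreign RNA and hold back its translation, and their 3 genes lie together on chromosome 19. All 3 were called higher in both pairs. Ifit1 went from 3.44 to 33.4 CPM in wild type (9.69-fold, 6.30 to 15.7) and from 0.906 to 34.1 CPM in the knockout-labelled pair (37.6-fold, 19.0 to 87.4). Ifit2 went from 5.58 to 46.6 CPM in wild type (8.36-fold, 5.95 to 12.1) and from 1.70 to 56.2 CPM in the knockout-labelled pair (33.1-fold, 20.0 to 59.3). Ifit3 went from 9.02 to 80.8 CPM in wild type (8.96-fold, 6.85 to 11.9) and from 3.40 to 109 CPM in the knockout-labelled pair (32.0-fold, 22.3 to 47.5). The sham levels rest on few counts, 21, 34 and 55 UMIs for Ifit1, Ifit2 and Ifit3 in wild type and 8, 15 and 30 UMIs in the knockout-labelled library. In wild-type sham 2 cells held 10 or more UMIs of the 3 genes each after thinning to 3000 UMIs, and no knockout-labelled sham cell held more than 2. The part of these cells alone in the ratios was not tested. An alternative left out the 1% of cells with most UMIs of each gene in every library. Over all alternatives the wild-type log2 ratios ran from 1.48 to 2.95 for Ifit1, 1.77 to 2.86 for Ifit2 and 2.00 to 3.03 for Ifit3. Ifit3 shares 19.1% of its 3′ sequence with Ifit3b, and how reads of the shared part were counted was not checked.

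The OAS family makes or resembles enzymes that make 2-5A, the signal that switches on RNase L. Of its 3 genes the 2 that passed the minimum were called higher in both pairs. Oasl2 went from 0.656 to 43.4 CPM in wild type (66.2-fold, 25.8 to 243) and from 1.25 to 55.7 CPM in the knockout-labelled pair (44.7-fold, 24.9 to 89.9). Oas1a went from 1.64 to 24.1 CPM in wild type (14.7-fold, 7.95 to 30.9) and from 1.81 to 24.5 CPM in the knockout-labelled pair (13.5-fold, 8.25 to 23.9), and 43.6% of its 3′ sequence is shared with Oas1g. Oasl1, a repressor of Irf7 translation, stayed under the minimum, at 0.492 and 8.43 CPM in the wild-type sham and injured libraries and 0.113 and 8.70 CPM in the knockout-labelled ones.

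ISG15 is a ubiquitin-like protein that is joined to other proteins, USP18 removes it and also damps the interferon receptor, and HERC6 is the ligase that attaches it in mice. Isg15 went from 28.9 to 121 CPM in wild type (4.18-fold, 3.59 to 4.90) and from 18.0 to 138 CPM in the knockout-labelled pair (7.66-fold, 6.53 to 9.05). In wild-type sham, 22 Isg15 UMIs lay in the 2 cells with 10 or more thinned Ifit UMIs, and 147 in cells with none. Usp18 went from 2.46 to 28.0 CPM in wild type (11.4-fold, 6.85 to 20.4) and from 3.28 to 33.7 CPM in the knockout-labelled pair (10.3-fold, 7.08 to 15.4). Both were called higher in both pairs, and Herc6 in neither. Herc6 stood at 26.7 and 26.4 CPM in wild-type sham and injured microglia-like cells, a ratio of 0.987 (0.829 to 1.18), and 22.4 and 37.6 CPM in the knockout-labelled pair, a ratio of 1.68 (1.43 to 1.97), so its level after injury in wild type lay within counting error of the sham level.

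Among the other antiviral effectors, all 3 that passed the minimum were called higher in both pairs. Ifitm3, a membrane protein that blocks virus entry, went from 11.8 to 344 CPM in wild type (29.2-fold, 23.1 to 37.3) and from 10.2 to 379.9 CPM in the knockout-labelled pair (37.3-fold, 30.3 to 46.4). Bst2, or tetherin, which holds budding virus at the cell surface, went from 124 to 519 CPM in wild type (4.19-fold, 3.90 to 4.52) and from 133 to 547 CPM in the knockout-labelled pair (4.12-fold, 3.88 to 4.38). Rsad2, or viperin, which makes a chain-terminating nucleotide, went from 0.984 to 49.9 CPM in wild type (50.7-fold, 23.2 to 138) and from 0.453 to 29.5 CPM in the knockout-labelled pair (65.1-fold, 25.3 to 239.8). Its sham level rested on 6 and 4 UMIs. Cmpk2, the nucleotide kinase encoded beside Rsad2 on chromosome 12, and Isg20, an RNA exonuclease, stayed under the minimum. Cmpk2 stood at 0.164 and 8.64 CPM in the wild-type sham and injured libraries and 0.906 and 6.13 CPM in the knockout-labelled ones. Isg20 stood at 4.92 and 14.0 CPM in the wild-type sham and injured libraries and 3.17 and 16.9 CPM in the knockout-labelled ones.

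The nucleic acid sensors split. Ifi204, a DNA sensor of the interferon-inducible p200 family, went from 7.87 to 114 CPM in wild type (14.5-fold, 10.9 to 19.8) and from 5.32 to 116 CPM in the knockout-labelled pair (21.7-fold, 16.3 to 29.6). Zbp1, which binds Z-form nucleic acid, went from 4.59 to 43.9 CPM in wild type (9.55-fold, 6.57 to 14.4) and from 1.47 to 37.5 CPM in the knockout-labelled pair (25.5-fold, 14.8 to 48.1). Both were called in both pairs. Ifi209, another p200 gene, was called in the knockout-labelled pair, where it went from 2.04 to 24.5 CPM (12.0-fold, 7.53 to 20.5), and was at 4.59 and 18.7 CPM in wild type, just under the minimum of 20 CPM; 63.8% of its 3′ sequence is shared with Ifi214. The RNA helicases were called in neither pair. Ifih1, which encodes MDA5, stood at 22.8 and 32.9 CPM in the wild-type sham and injured libraries and 17.0 and 38.1 CPM in the knockout-labelled ones. Ddx58, which encodes RIG-I, stood at 21.5 and 25.5 CPM in the wild-type sham and injured libraries and 20.5 and 30.4 CPM in the knockout-labelled ones.

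Of the 3 transcription factors, 1 was called higher. Irf7, the factor that amplifies interferon production, went from 2.79 to 76.4 CPM in wild type (27.4-fold, 17.1 to 47.2) and from 2.27 to 81.1 CPM in the knockout-labelled pair (35.8-fold, 23.1 to 58.7) and was called in both pairs. Stat2 and Irf9, whose products are part of the ISRE-binding complex, were not called. Stat2 stood at 12.3 and 25.8 CPM in wild-type sham and injured microglia-like cells, a ratio of 2.10 (1.65 to 2.71), and 11.2 and 27.1 CPM in the knockout-labelled pair, a ratio of 2.42 (1.95 to 3.03). Irf9 stood at 33.3 and 45.2 CPM in wild-type sham and injured microglia-like cells, a ratio of 1.36 (1.17 to 1.58), and 36.9 and 46.6 CPM in the knockout-labelled pair, a ratio of 1.26 (1.11 to 1.43). The intervals of both lay above 1, so the differences exceeded counting error while staying under the threshold on the log2 scale.

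The GTPases attack the membranes around intracellular pathogens and are best known as targets of interferon gamma. None of the 3 that passed the minimum in wild type was called higher. Gbp7 was called lower in wild type and missed the threshold in the knockout-labelled pair with a log2 ratio of -0.96. Its level went from 66.9 to 15.2 CPM in wild type (0.227-fold, 0.196 to 0.262) and from 55.4 to 23.5 CPM in the knockout-labelled pair (0.425-fold, 0.374 to 0.482). Gbp7 was thus the member with the lowest log2 ratio in both pairs. Irgm1 stood at 22.8 and 46.6 CPM in wild-type sham and injured microglia-like cells, a ratio of 2.04 (1.71 to 2.46), and 25.3 and 57.8 CPM in the knockout-labelled pair, a ratio of 2.29 (1.98 to 2.65), with log2 ratios of 0.79 and 0.94. Gbp2 was called higher in the knockout-labelled pair, from 4.98 to 21.7 CPM (4.35-fold, 3.19 to 6.07), and was at 6.07 and 10.2 CPM in wild type; leaving out the 1% of cells with most Gbp2 UMIs took its log2 ratio in the knockout-labelled pair from 1.08 to 0.65 and ended the call. Igtp stood at 25.4 and 25.2 CPM in the wild-type sham and injured libraries and 31.0 and 37.6 CPM in the knockout-labelled ones, and Gbp3 at 11.2 and 8.34 CPM in the wild-type sham and injured libraries and 13.1 and 13.1 CPM in the knockout-labelled ones. Ifi47 stood at 0.492 and 4.09 CPM in the wild-type sham and injured libraries and 0.680 and 4.89 CPM in the knockout-labelled ones, under the minimum throughout.

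Both Schlafen genes, whose family is known for restraining the growth of immune cells, were called higher in both pairs. Slfn2 went from 42.0 to 136 CPM in wild type (3.25-fold, 2.86 to 3.71) and from 29.9 to 143 CPM in the knockout-labelled pair (4.80-fold, 4.23 to 5.46). Slfn5 went from 5.25 to 81.0 CPM in wild type (15.4-fold, 10.9 to 22.6) and from 2.27 to 92.7 CPM in the knockout-labelled pair (40.9-fold, 26.4 to 67.1). Of the 9 remaining members, 7 passed the minimum in each pair, and 4 of these were called higher in both: Ifi27l2a, Lgals3bp, Rtp4 and Xaf1. Ifi27l2a, which encodes a small membrane protein, went from 9.68 to 492 CPM in wild type (50.8-fold, 39.4 to 66.8) and from 10.3 to 431 CPM in the knockout-labelled pair (41.8-fold, 34.0 to 51.9), with log2 ratios of 4.67 and 4.44. These were the highest of the set. Lgals3bp, a secreted galectin-binding glycoprotein, went from 84.0 to 546 CPM in wild type (6.51-fold, 5.96 to 7.12) and from 78.5 to 629 CPM in the knockout-labelled pair (8.02-fold, 7.43 to 8.67). Rtp4, a chaperone that also restrains interferon responses, was at 6.07 and 101 CPM in the wild-type sham and injured libraries and 9.29 and 118 CPM in the knockout-labelled ones. Xaf1, a promoter of apoptosis, was at 11.3 and 53.9 CPM in the wild-type sham and injured libraries and 13.8 and 56.0 CPM in the knockout-labelled ones. Trim30a, Parp14 and Ifi35 passed the minimum and were called in neither pair. Trim30a was at 85.6 and 139.8 CPM in the wild-type sham and injured libraries and 79.7 and 164 CPM in the knockout-labelled ones. Parp14 was at 51.5 and 69.7 CPM in the wild-type sham and injured libraries and 41.2 and 91.0 CPM in the knockout-labelled ones. Ifi35 was at 37.6 and 63.5 CPM in the wild-type sham and injured libraries and 37.7 and 65.2 CPM in the knockout-labelled ones. Ms4a4c stayed under the minimum at 2.13 and 12.4 CPM in the wild-type sham and injured libraries and 0.906 and 17.2 CPM in the knockout-labelled ones. Ifi44 had no UMI in either sham library and 2.11 and 3.09 CPM in the injured ones, which is at least 4.28-fold and 9.09-fold higher against a floor of 3 UMIs in each sham library.

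The microglia-like class was made up differently in sham and injured libraries. Sham cells lay mostly in clusters 3 and 5, and injured cells mostly in clusters 4, 6, 11, 12, 14 and 16. The higher level was seen inside the clusters that held both, although clusters 4 and 12 held few sham cells. These were 23 cells in each in wild type, and 52 and 38 cells in the knockout-labelled library. Summed over the 39 members, cluster 3 (led by Slc5a3 and Ints6) went from 815 to 2163 CPM in wild type and from 744 to 2317 CPM in the knockout-labelled pair. Cluster 5 (led by Hspa1b and Slc2a5) went from 727 to 1733 CPM and from 717 to 2742 CPM. Cluster 4 (led by Rrad and Il1a) went from 832 to 3139 CPM and from 710 to 3000 CPM. Cluster 12 was led by the members Ifi27l2a and Ifit3, and it went from 1123 to 4371 CPM and from 648 to 4474 CPM. Neither gene entered the clustering, while other genes correlated with the Ifit genes could. The clusters found almost only after injury stood between 2864 CPM, in the wild-type cells of cluster 16 (led by Cd5l and Spp1), and 4993 CPM, in the knockout-labelled cells of cluster 6 (led by Cxcl10 and Ccl12). Macrophage or monocyte markers also differed within the microglia-like cells: their summed level was 334 and 3856 CPM in wild-type sham and injured cells (10 and 12 of 12 markers detected, with Ly6c2 and Arg1 at 0 in sham) and 327 and 1705 CPM in the knockout-labelled pair (11 of 12, with Gpnmb at 0, and 12 of 12). Without cluster 16 the calls were again 19 and 21 members higher. The scaling also moved the counts. Median-of-ratios scaling shifted the median log2 ratio of all genes tested from -0.32 to 0.10 in wild type and from -0.21 to 0.07 in the knockout-labelled pair. Under it 24 members were called higher and 1 lower in wild type, against 10.6% higher and 2.2% lower of all genes. In the knockout-labelled pair it gave 26 higher and 0 lower, against 4.85% and 0.489%.

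Between the 2 injured libraries the members stood close together in microglia-like cells. None of the 32 that passed the minimum was called in either direction, against 0.0919% higher and 0.827% lower over 5441 genes. Their log2 ratios, knockout-labelled against wild type, ran from -0.60 for Rsad2 to 0.65 for Gbp2. Rsad2 was at 49.9 CPM in the wild-type and 29.5 CPM in the knockout-labelled library, a ratio of 0.592 (0.536 to 0.653). Gbp2 was at 10.2 and 21.7 CPM, a ratio of 2.13 (1.82 to 2.50). Ifi27l2a, among the 3 lowest, was at 492 and 431 CPM, a ratio of 0.876 (0.852 to 0.900). The summed level was 3537 CPM in wild type and 3847 CPM in the knockout-labelled library. Between the sham libraries 14 members passed and none was called, against 0.0651% higher and 0.163% lower over 6146 genes. Isg15 had the lowest log2 ratio of these 14, -0.47, at 28.9 and 18.0 CPM. The difference of the injury responses, the log2 ratio of the knockout-labelled pair minus that of wild type, was highest for Ifit3 at 0.89 and lowest for Rsad2 at -0.53. With 1 library in each group this difference could not be tested. In wild-type sham 2 cells held 10 or more thinned Ifit UMIs each. Under the alternatives the injury log2 ratio of Ifit3 ran from 2.00 to 3.03 in wild type and from 2.87 to 4.64 in the knockout-labelled pair. That of Rsad2 ran from 1.59 to 4.68 and from 1.39 to 4.39. The ranges of the 2 pairs overlapped for both genes. Each range runs over unlike settings, so the overlap does not show whether the pairs differ.

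The summed values hide how the transcripts were spread over cells. Each cell was thinned to 3000 UMIs so that cells could be compared at 1 depth, which left out 44 of 522 wild-type sham, 115 of 2017 wild-type injured, 59 of 858 knockout-labelled sham and 82 of 1944 knockout-labelled injured microglia-like cells. A cell was called strongly induced with 3 or more thinned UMIs of Ifit1, Ifit2 and Ifit3 together, low with 1 or 2, and none with 0. Strong cells were 2 of 478 in wild-type sham (0.418%, 95% exact interval 0.0507 to 1.5), 78 of 1902 in wild-type injured (4.10%, 3.25 to 5.09), 0 of 799 in knockout-labelled sham (up to 0.461%) and 97 of 1862 in knockout-labelled injured (5.21%, 4.24 to 6.32). Low cells made up 15.1% of wild-type injured cells, 15.8% of knockout-labelled injured cells and 1.46% and 1.75% of the sham cells. Cells with none were 80.8% and 79.0% after injury and 98.1% and 98.2% in sham. Without thinning, 40.0% and 37.6% of the injured cells and 6.49% and 5.01% of the sham cells, wild type first, had at least 1 UMI of the 3 genes. The range from none to strong was continuous: 26 and 21 injured cells held 3 UMIs, 61 and 75 held 2, and the highest cells held 31 and 34. A class made by such a count is a range and not a cell type. Strong cells occurred in all 8 microglia-like clusters of both injured libraries, from 0.98% in wild-type cluster 5 to 8.73% in knockout-labelled cluster 6. Median depth was 9827.5, 11478 and 11571.5 UMIs in none, low and strong cells of the wild-type injured library and 9374, 11107 and 9955 UMIs in the knockout-labelled one.

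**Figure D2:**
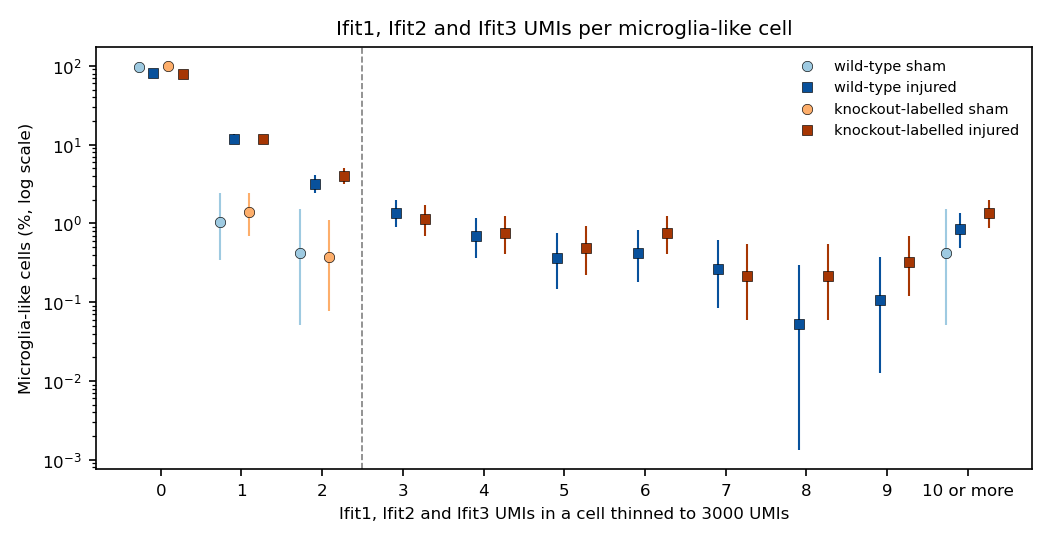
Share of microglia-like cells (%, log axis) by the number of Ifit1, Ifit2 and Ifit3 UMIs in a cell thinned to 3000 UMIs, for each library, with 95% exact binomial intervals; the dashed line divides low from strong cells. Sham cells with 3 or more UMIs numbered 2 in wild type and 0 in the knockout-labelled library, and injured cells run on past 10 UMIs without a gap at the line.

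Strong cells carried the other members too. Of the 36 members other than Ifit1, Ifit2 and Ifit3, a median of 14 were detected in the strong cells of the wild-type injured library and 17 in the knockout-labelled one, against 8 in low cells and 4 in cells with none of both. Cells with none in the sham libraries had a median of 2. Summed over strong cells against cells with none, 31 of 35 tested members were called higher in wild type (2.33% of all genes were, and 0.148% lower) and 33 of 36 in the knockout-labelled library (2.64% and 0.213%). No member was called lower in either. Cells were grouped by other genes of the same response, so these ratios describe how the members go together and are no test of induction.

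Rsad2, Ifi47 and Cmpk2 had most of their UMIs in strong cells of both injured libraries. Rsad2 stood at 12.7, 53.4 and 709 CPM over the none, low and strong cells of the wild-type injured library and 4.67, 31.0 and 394 CPM in the knockout-labelled one, with strong to none ratios of 55.9 (48.2 to 65.0) and 84.4 (65.9 to 109). Strong cells held 62.5% and 68.7% of all Rsad2 UMIs while making up 4.10% and 5.21% of the cells. Ifi47 stood at 0.860, 5.42 and 57.7 CPM over the none, low and strong cells of the wild-type injured library and 1.17, 3.35 and 69.0 CPM in the knockout-labelled one, and 61.9% and 69.9% of its UMIs lay in strong cells. Cmpk2, the neighbour of Rsad2, had strong to none ratios of 41.3 (29.6 to 58.3) and 30.3 (19.9 to 47.0), and Oasl1 had strong to none ratios of 22.9 (16.2 to 32.5) and 49.4 (33.7 to 74.0). Strong cells held 58.8% and 53.5% of Cmpk2 UMIs and 39.2% and 64.8% of Oasl1 UMIs. Both had stayed under the minimum in the whole class. Isg15 stood at 66.6, 206 and 783 CPM over the none, low and strong cells of the wild-type injured library and 64.1, 201 and 1066 CPM in the knockout-labelled one, with strong to none ratios of 11.7 (10.7 to 12.8) and 16.6 (15.3 to 18.1), and Usp18 had strong to none ratios of 10.9 (8.99 to 13.1) and 15.7 (13.2 to 18.7). Most UMIs of both lay outside strong cells, which held 28.6% and 38.7% of Isg15 and 27.1% and 37.5% of Usp18 UMIs.

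Other members differed less between the ranges. Ifi27l2a, Lgals3bp and Irf9 were not called higher in strong cells of either library, and Bst2 was not in wild type. Ifi27l2a stood at 449, 684 and 586 CPM over the none, low and strong cells of the wild-type injured library and 379, 597 and 685 CPM in the knockout-labelled one, with strong to none ratios of 1.30 (1.20 to 1.42) and 1.81 (1.67 to 1.95). Strong cells held 5.24% and 7.92% of its UMIs and made up 4.10% and 5.21% of the cells. Lgals3bp had strong to none ratios of 1.57 (1.46 to 1.69) and 1.64 (1.54 to 1.75), and Bst2 had strong to none ratios of 1.99 (1.86 to 2.13) and 2.50 (2.35 to 2.65). Irf9 had strong to none ratios of 1.26 (0.946 to 1.66) and 2.05 (1.63 to 2.55). Ifitm3 lay between, at 277, 534 and 854 CPM over the none, low and strong cells of the wild-type injured library and 284, 574 and 1234 CPM in the knockout-labelled one. GTPases and Herc6, which were not called higher in the whole wild-type class after injury, were called higher in strong cells: Gbp7 had strong to none ratios of 4.42 (3.25 to 5.91) and 7.09 (5.68 to 8.79), Herc6 had strong to none ratios of 6.53 (5.29 to 8.01) and 7.28 (6.10 to 8.65), and Igtp had strong to none ratios of 5.55 (4.46 to 6.85) and 6.21 (5.18 to 7.40).

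**Figure D3:**
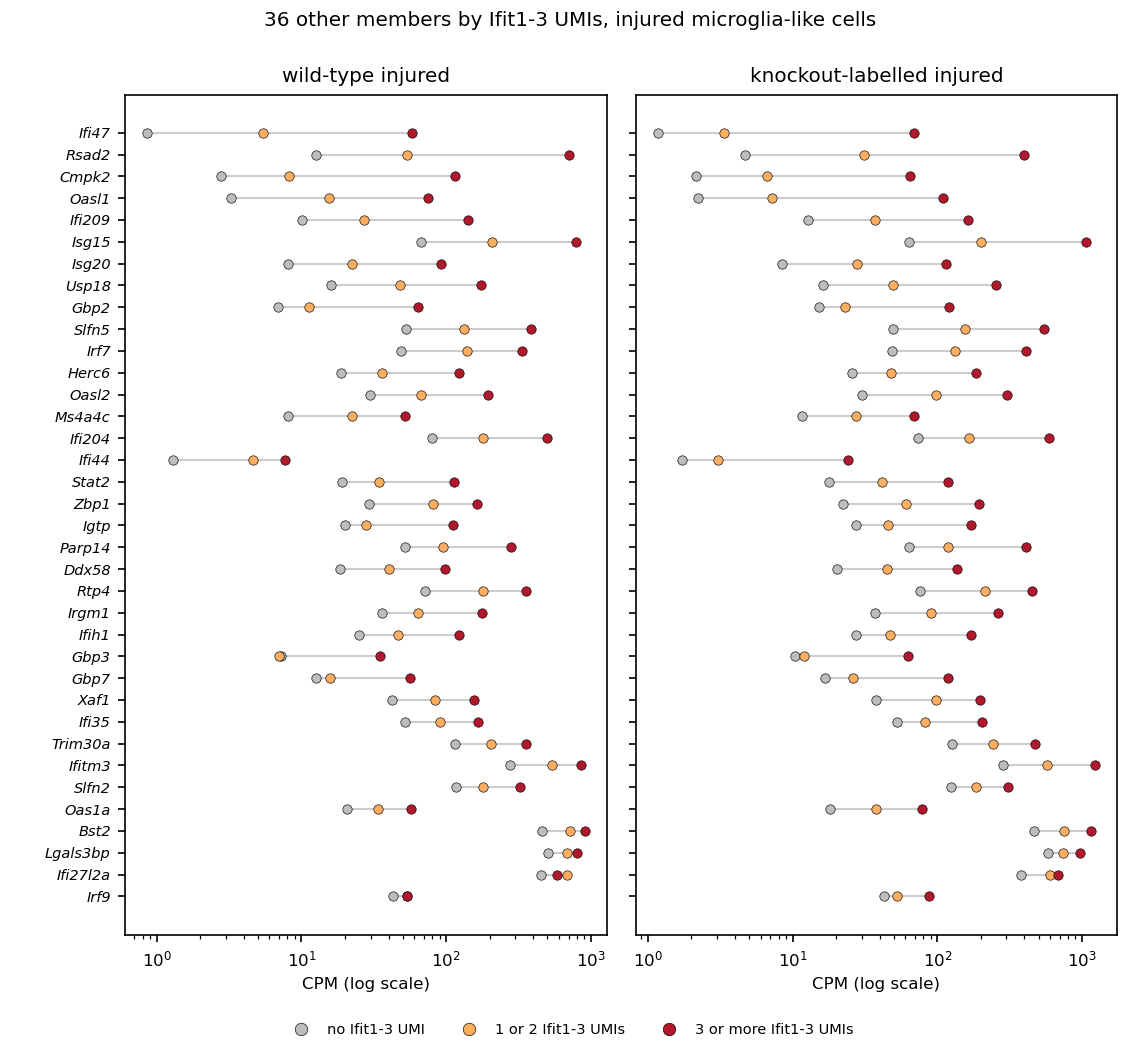
CPM (log axis) of the 36 members other than Ifit1, Ifit2 and Ifit3 in injured microglia-like cells with 0 Ifit1, Ifit2 and Ifit3 UMIs after thinning to 3000 UMIs (grey), 1 or 2 (orange) and 3 or more (red), 1 panel for each injured library, ordered by the strong to none ratio in wild type. Ifi47 and Rsad2 at the top span the widest range, and Lgals3bp, Ifi27l2a and Irf9 at the bottom the narrowest.

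Cells without any Ifit1, Ifit2 or Ifit3 UMI after thinning still differed from their sham counterparts. Not all of them lacked these UMIs before thinning. They were 80.8% and 79.0% of the injured cells, wild type first, while 40.0% and 37.6% had at least 1 such UMI unthinned. The levels below use all UMIs of these cells, so they do not describe cells free of Ifit transcripts. In wild type 24 of the 36 other members passed the minimum, and 14 were called higher and 1 lower, against 3.96% and 9.69% of all genes. In the knockout-labelled pair 23 passed, and 13 were higher and 1 lower, against 2.38% and 1.47%. The median log2 ratio over the 36 was 0.55 and 0.68, against 0.88 and 1.20 for the same genes over all microglia-like cells. Ifi27l2a went from 9.59 to 449 CPM in wild type (46.8-fold, 36.1 to 61.9) and from 9.31 to 379 CPM in the knockout-labelled pair (40.7-fold, 32.7 to 51.4). Ifitm3 went from 11.3 to 277 CPM in wild type (24.6-fold, 19.3 to 31.8) and from 9.90 to 284 CPM in the knockout-labelled pair (28.7-fold, 23.2 to 36). Lgals3bp went from 84.3 to 505 CPM in wild type (6.00-fold, 5.48 to 6.57) and from 77.8 to 586 CPM in the knockout-labelled pair (7.53-fold, 6.96 to 8.15). The ratios of these 3 genes in the whole class were 50.8 and 41.8, 29.2 and 37.3, and 6.51 and 8.02. Isg15 went from 24.7 to 66.6 CPM in wild type (2.70-fold, 2.27 to 3.22) and from 17.6 to 64.1 CPM in the knockout-labelled pair (3.65-fold, 3.07 to 4.36), lower ratios than in the whole class. Gbp7 was the member called lower in both pairs, going from 66.1 to 12.6 CPM in wild type (0.191-fold, 0.162 to 0.225) and from 55.4 to 16.8 CPM in the knockout-labelled pair (0.303-fold, 0.260 to 0.352). Rsad2, at 0.505 and 12.7 CPM in wild type and 0.466 and 4.67 CPM in the knockout-labelled pair, no longer passed the minimum.

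The spread over single cells was also measured. The Fano factor, the variance of the thinned counts over their mean, is 1 for counting noise alone. It was computed for 35 members in each injured library. For Rsad2 it was 4.75 in the wild-type and 3.84 in the knockout-labelled library, and for Ifit3 4.39 and 5.53. Ifi27l2a reached 3.92 and 2.81 although it was found in 51.9% and 47.9% of thinned injured cells. Isg15 was at 2.72 and 4.43 and Ifitm3 at 3.26 and 3.63. A low mean pulls the factor toward 1, so genes at different levels are not ranked by it: Stat2 was at 1.05 and 1.14 and still had strong to none ratios of 5.86 (4.72 to 7.25) and 6.69 (5.38 to 8.29). In shares of thinned cells with at least 1 UMI, Lgals3bp was found in 16.3% and 70.4% of wild-type sham and injured cells and 19.3% and 73.2% of the knockout-labelled ones. Ifitm3 was found in 2.09% and 44.4%, and 2.75% and 42.9%. Rsad2 was found in 0.209% and 5.89%, and 0% and 4.73%. Free RNA can put a UMI in a cell that does not express a gene, and no class here is known to lack all members. In thinned endothelial-like cells of the injured libraries, Ms4a4c was found in 0% and Ifi204 in 1.64% and 2.88%. The shares in microglia-like cells were 3.36% and 4.19%, and 23.3% and 21.6%. Ms4a4c was rare in both classes, so its absence from 61 and 104 endothelial-like cells says little about free RNA. Median depths of the whole classes were 4448.5 and 4250.0 UMIs, and 9707 and 9408.5 in microglia-like cells. Microglia markers summed to 3256 and 2585 CPM in these endothelial-like cells, against 14852 and 19238 CPM in microglia-like cells. How much of this was free RNA was not tested.

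Macrophage or monocyte-like cells were compared with microglia-like cells in the injured libraries only, since the sham libraries held 1 and 2 of them. Cluster 9, which holds most of this class, expressed microglia markers in more of its cells than macrophage markers and was named by its leading genes, Lyz2 and Gpnmb among them; cluster 15 was led by MHC class II genes. The level of the set was close to that of microglia-like cells in the wild-type injured library, at 3311 against 3537 CPM. There 32 members passed, and 2 were called higher and 1 lower, against 3.7% and 5.41% of all genes. Ms4a4c, a membrane protein gene of myeloid cells, was at 54.1 CPM in macrophage or monocyte-like and 12.4 CPM in microglia-like cells, a ratio of 4.37 (3.78 to 5.06). Ifi47 was at 30.2 and 4.09 CPM, a ratio of 7.38 (5.84 to 9.38). Ifi27l2a was lower, at 193 against 492 CPM, a ratio of 0.392 (0.373 to 0.412). In the knockout-labelled injured library, with 67 cells of this class, 6 of 35 were called higher and none lower, against 4.78% and 6.7%. These were Ms4a4c (a ratio of 9.02, 7.37 to 11), Ifi47 (13.5, 9.67 to 18.8), Ifi209, Zbp1, Irf7 and Ifitm3. The summed level was 4941 against 3847 CPM. Over all 39 members the median log2 ratio to microglia-like cells was -0.05 in wild type and 0.22 in the knockout-labelled library. It was -0.13 in both over all genes tested. When genes correlated with the Ifit genes were also left out of clustering, 3 members were called in place of 6. Strong cells were 24 of 530 thinned macrophage or monocyte-like cells (4.53%, 2.92 to 6.66) in wild type and 6 of 65 (9.23%, 3.46 to 19.0) in the knockout-labelled library, and both intervals held the microglia-like share of the same library. The class was made up differently in the 2 injured libraries: cluster 15 was 62 of 542 wild-type and 17 of 67 knockout-labelled cells, and in wild type its summed level was 6563 CPM against 3110 CPM in cluster 9. In cluster 9 alone the summed level was 4608 CPM in 50 knockout-labelled cells, and Irf7 was at 68.5 CPM in wild type and 205.9 CPM in the knockout-labelled library. Ifitm3 was at 281 and 612 CPM in cluster 9, wild type first, and at 2342 CPM in wild-type cluster 15. Its cluster 9 level was below that of microglia-like cells in wild type and above it in the knockout-labelled library. The other members called higher were not read by cluster. Dendritic cell markers summed to 74.8 CPM in wild-type cells of the class (8 of 8 detected) and 290.2 CPM in knockout-labelled ones (7 of 8, with Xcr1 at 0). T or NK cell markers summed to 12.0 CPM (6 of 9, with Cd3e, Cd3g and Trbc2 at 0) and 107 CPM (6 of 9, with Klrb1c, Ncr1 and Gzma at 0). The part of these other cells in the differences of this class was not tested. Between the injured libraries, 2 of 34 members were called higher in knockout-labelled cells of this class, Irf7 (2.41-fold, 2.02 to 2.86) and Ms4a4c (2.87-fold, 2.37 to 3.47), and none lower, against 1.37% and 0.809% of all genes.

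Border-associated macrophage-like cells carried the set without injury. Summed over the 39 members their level was 3634 CPM in the wild-type sham library and 3205 CPM in the knockout-labelled one, against 798 and 731 CPM in microglia-like cells. In sham, 13 of 25 members were called higher than in microglia-like cells in wild type and 10 of 23 in the knockout-labelled library, and none lower, against 6.97% and 10.0% of all genes higher and 7.57% and 10.6% lower. Members low in microglia-like cells pass the minimum only where they are high, so these counts lean toward higher. Over all 39 members the median log2 ratio was 0.98 and 1.08, with 0 and 3 members below 0. It was -0.05 and -0.07 over all genes tested. The 3 highest were the same in both. Ifitm3 was at 829 CPM in wild-type and 764 CPM in knockout-labelled sham cells, ratios to microglia-like cells of 70.2 (55.0 to 90.7) and 75.0 (59.5 to 95.3). Ifi27l2a was at 459.5 and 440.2 CPM, ratios of 47.5 (36 to 63.6) and 42.7 (33.4 to 55.0). Ifi204 was at 143 and 116 CPM, ratios of 18.2 (12.9 to 26.0) and 21.8 (14.7 to 32.6). Slfn2, Slfn5, Bst2, Rtp4, Isg15 and Ifit3 were called in both as well. Leaving out the 1% of cells with most UMIs of each gene left 8 and 6 members called. Strong Ifit cells were 0 of 75 and 1 of 49.

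After injury 3 of 33 members were called higher than in microglia-like cells and none lower in wild type, against 9.92% and 4.89% of all genes: Gbp7 (a ratio of 6.18, 4.48 to 8.37), Ifitm3 (3.64, 3.35 to 3.94) and Ifi47 (9.08, 5.24 to 15). The count of 3 became 14, higher and lower together, with a stricter cell filter. In the knockout-labelled library 7 of 36 were called higher and 1 lower, against 10.3% and 5.8%. At a coarser clustering or with interferon genes kept in clustering, 18 were called, higher and lower together. The shares of all genes under these settings are not given beside the 14 and the 18, so nothing is read from them. Lgals3bp was the member called lower in the main setting, at 225 against 629 CPM, which is 2.79 (2.41 to 3.25) times higher in microglia-like cells. Over all 39 members the median log2 ratio to microglia-like cells was 0.21 in wild type and 0.50 in the knockout-labelled library. It was 0.19 and 0.10 over all genes tested. Within border-associated macrophage-like cells the median log2 ratio of the 39 members, injured against sham, was 0.46 in wild type and 0.73 in the knockout-labelled pair, against -0.07 and -0.05 over all genes tested, and 4 of 33 members were higher and 1 lower in wild type (2.54% and 4.77% of all genes) and 11 of 35 higher and none lower in the knockout-labelled pair (2.38% and 1.5%). Rtp4, Lgals3bp, Ifit2 and Ifit3 were called in both. Ifit3 went from 28.2 to 93.8 CPM in wild type (3.33-fold, 2.00 to 5.68) and from 54.3 to 173 CPM in the knockout-labelled pair (3.18-fold, 2.12 to 4.93). Irf7 was called in the knockout-labelled pair, where it went from 16.9 to 160.3 CPM (9.51-fold, 4.85 to 21.3), and was at 41.1 and 89.9 CPM in wild type. Igtp was the member called lower, at 69.3 and 23.4 CPM in wild type (0.338-fold, 0.165 to 0.636). Between the injured libraries 4 of 35 were called higher in knockout-labelled cells and none lower (5.3% and 2.38% of all genes): Ifit1, Ifit2, Rsad2 and Cmpk2, with Rsad2 at 27.4 and 140.2 CPM (5.13-fold, 2.93 to 9.68). Between the sham libraries none of 31 was called (3.0% and 3.48%). Other cells' transcripts also differed between the libraries of this class. All 9 border-associated macrophage markers were found in each, summing to 4710 to 7924 CPM. The 4 ependymal and choroid plexus markers summed to 605 and 44.9 CPM in wild-type sham and injured cells and to 33615 and 39930 CPM in the knockout-labelled ones, with Ccdc153 at 0 in wild-type injured cells. With interferon genes kept in clustering, 18 cells led by Ttr and Enpp2 formed a separate ependymal or choroid plexus cluster. It held 4 wild-type sham, 0 wild-type injured, 6 knockout-labelled sham and 8 knockout-labelled injured cells. The 5 fibroblast markers summed to 287, 3572, 41.2 and 361 CPM, with Col3a1 at 0 in knockout-labelled sham cells. Their part in these results was not tested.

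Endothelial-like cells held the highest summed sham level of the 3 classes compared in sham, at 4534 CPM in wild type and 5224 CPM in the knockout-labelled library. Against microglia-like cells of the same library, 17 of 24 members were called higher in wild-type sham and 23 of 28 in knockout-labelled sham, and none lower; 15.6% and 18.2% of all genes were higher, and 19.5% and 15.6% lower. These counts lean toward higher in the same way. Over all 39 members the median log2 ratio was 1.42 and 1.71, with 6 and 4 members below 0. It was 0.08 and 0.22 over all genes tested. Without a minimum level 26 were called in wild-type sham, higher and lower together, and the share of all genes under that setting is not given. Ifitm3 stood at 1283 and 2012 CPM in the wild-type sham and injured libraries and 1533 and 1729 CPM in the knockout-labelled ones, where microglia-like cells had 11.8, 344, 10.2 and 380 CPM. The sham ratios were 109 (83.6 to 143) and 150.4 (121 to 189). Slfn5 stood at 449 and 403 CPM in the wild-type sham and injured libraries and 485 and 337 CPM in the knockout-labelled ones, with sham ratios of 85.6 (56.9 to 132) and 214 (136 to 356). Ifit1 stood at 139 and 202 CPM in the wild-type sham and injured libraries and 209 and 269 CPM in the knockout-labelled ones, with sham ratios of 40.3 (22.3 to 74.1) and 230.2 (113 to 545). Isg15 stood at 287 and 479 CPM in the wild-type sham and injured libraries and 381 and 435 CPM in the knockout-labelled ones. All of these were high in both sham and injured libraries.

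After injury 19 of 36 members were called higher and 3 lower in endothelial-like than in microglia-like cells in wild type, against 23.3% and 12.4% of all genes. In the knockout-labelled library 14 of 38 were higher and 5 lower, against 22.5% and 13.9%. The median log2 ratio over all 39 members was 0.98 in wild type and 0.71 in the knockout-labelled library. It was 0.44 and 0.40 over all genes tested. All 6 GTPases were among those higher in wild type. Gbp3 stood at 129.7 and 211 CPM in the wild-type sham and injured libraries and 146 and 197 CPM in the knockout-labelled ones, injured ratios of 25.3 (20.0 to 31.8) and 15 (12.2 to 18.4) to microglia-like cells. Gbp7 stood at 236 and 240.2 CPM in the wild-type sham and injured libraries and 203 and 199 CPM in the knockout-labelled ones, without the lower level after injury seen in microglia-like cells; its injured ratios were 15.8 (12.9 to 19.3) and 8.47 (7.01 to 10.2). Ifi27l2a, Ifi204 and Lgals3bp were lower in endothelial-like cells of both injured libraries. Ifi27l2a stood at 41.7 and 70.9 CPM in the wild-type sham and injured libraries and 43.4 and 49.5 CPM in the knockout-labelled ones and was 6.94 (5.11 to 9.68) and 8.70 (6.31 to 12.4) times higher in microglia-like cells after injury. Ifi204 had 1, 7, 0 and 7 UMIs in the wild-type sham, wild-type injured, knockout-labelled sham and knockout-labelled injured cells, and Ms4a4c had none. Ifi209 and Slfn2 were lower in the knockout-labelled library as well. Strong Ifit cells were 2 of 26, 10 of 61 (16.4%, 8.15 to 28.1), 7 of 43 (16.3%, 6.81 to 30.7) and 19 of 104 (18.3%, 11.4 to 27.1) in the same order of libraries.

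Within endothelial-like cells the median log2 ratio of the 39 members, injured against sham, was 0.51 in wild type and 0.23 in the knockout-labelled pair, against 0.02 and -0.02 over all genes tested. In wild type 31 members lay above 0 and 6 below, and in the knockout-labelled pair 28 above and 10 below. The summed level was 4534 and 6428 CPM in wild type and 5224 and 6075 CPM in the knockout-labelled pair. In wild type 1 of 32 was called higher and none lower (3.9% and 1.33% of all genes), Bst2, at 167 and 372 CPM (2.23-fold, 1.56 to 3.27). In the knockout-labelled pair 2 of 32 were called higher and none lower (0.924% and 1.47%). Irf7 was at 76.5 and 262 CPM (3.43-fold, 2.46 to 4.87) and Herc6 at 22.6 and 56.2 CPM (2.49-fold, 1.31 to 5.05). Between the injured libraries none of 32 was called (0.381% of all genes were higher and 0.596% lower), and between the sham libraries none of 32 was either (4.51% and 1.71%). All 10 endothelial markers were detected in each library, summing to 22889 to 24396 CPM. Microglia markers summed to 2117, 3256, 1834 and 2585 CPM in them, with Gpr34 at 0 in wild-type sham cells, and erythroid markers to 0, 6446, 6.95 and 103 CPM. All 5 erythroid markers were at 0 in wild-type sham cells. Their part in these results was not tested.

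**Figure D4:**
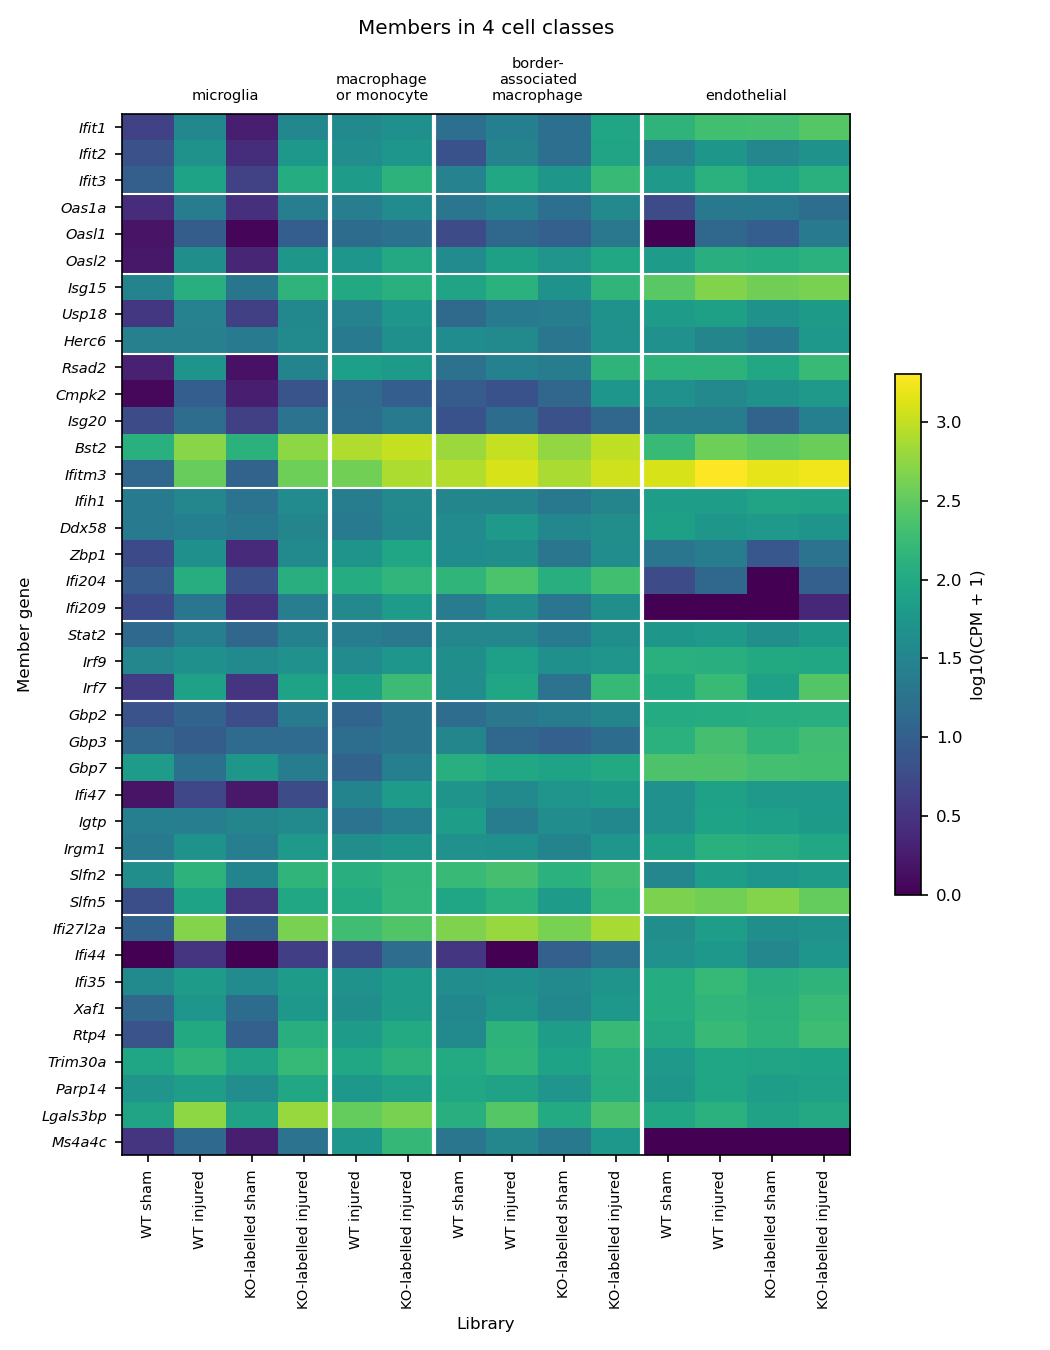
Level of the 39 members, as log10(CPM + 1) by colour, in microglia-like, macrophage or monocyte-like, border-associated macrophage-like and endothelial-like cells of each library with at least 20 cells of the class; white lines divide classes and roles. Ifitm3 is dark in the microglia-like sham columns (11.8 and 10.2 CPM) and light in those of both other classes, and Ifi204, Ifi209 and Ms4a4c are dark throughout endothelial-like cells.

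Other genes of the pathway were read in microglia-like cells from lists that hold none of the 39. The shares of all genes called between injured and sham microglia-like cells, given above, were 4.2% higher and 10.1% lower in wild type (2.2% lower under median-of-ratios scaling) and 2.65% and 1.53% in the knockout-labelled pair. None of 7 ligand genes passed the minimum. Over all analysed cells Ifnb1, which encodes interferon beta, had 1 and 39 UMIs in 1 and 10 cells of the wild-type sham and injured libraries and 1 and 33 UMIs in 1 and 12 cells of the knockout-labelled ones. Ifng, which encodes interferon gamma, had 10 UMIs in 2 knockout-labelled injured cells and none elsewhere. Of the receptor genes 5 passed, and Ifngr1, which encodes a chain of the interferon gamma receptor, was called lower in wild type, at 574 and 266 CPM. Ifnar1 and Ifnar2, the receptor for type I interferons, were not called. Among negative regulators Socs1 was called lower in wild type, at 53.3 and 14.9 CPM, of 5 that passed. Among sensors and adaptors Tmem173, which encodes STING, and Tlr3 were called lower in wild type, of 8 that passed. No gene of these 3 lists was called in the knockout-labelled pair, and with so few genes in a list nothing is read from these counts. Of 50 further interferon-induced genes, 7 of the 27 that passed were called higher in wild type and 12 of 29 in the knockout-labelled pair, and none lower. Cxcl10, a chemokine for T cells, went from 131 to 432 CPM in wild type (3.30-fold, 3.07 to 3.55) and from 113 to 516 CPM in the knockout-labelled pair (4.56-fold, 4.27 to 4.87). Ifi207, a p200 gene, went from 3.28 to 74.0 CPM in wild type (22.6-fold, 14.6 to 37.1) and from 1.36 to 43.7 CPM in the knockout-labelled pair (32.2-fold, 18.3 to 62.5). Ccl5, Ccl12, Sp100, Dhx58 and Phf11b were called in both pairs. Between the injured libraries the chemokine gene Cxcl9 was the gene of these lists called higher, at 3.84 CPM in wild type and 21.3 CPM in the knockout-labelled library (5.56-fold, 4.43 to 7.05).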

How the data were processed

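Single-cell 3′ RNA-seq libraries (4, 1 for each group) were read from the count matrices the authors deposited, which hold raw UMI counts per gene and barcode; Cell Ranger 6.0.1 and mm10 are named in the file headers and the submitters' processing notes, and neither states the gene annotation release. Members and gene lists were chosen with earlier results of these data known. Cells needed 500 genes and 1000 UMIs or more and no more than 10% mitochondrial UMIs, and the top Scrublet scores were removed at 0.8% per 1000 barcodes. Leiden clustering (scanpy 1.11.5, leidenalg 0.10.2; 2000 variable genes, 30 components, 15 neighbours, resolution 1) left out the members and the pathway lists. Cluster 9 had microglia markers in the larger share of its cells (51.0%) and took its macrophage name from its leading genes, so a difference from the study's own cell types may come from these rebuilt names.

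UMIs were summed per class and library and divided by the class total (Python 3.11.15, numpy 2.4.6, scipy 1.17.1, pandas 2.3.3; figures with matplotlib 3.10.9). Ratios carry exact conditional binomial intervals, CPM exact Poisson intervals and shares Clopper-Pearson intervals, all at 95% and for counting error only. A member was named in full if it had the most UMIs of its role group (2 members, or all 3 in groups of 3) or was among the 3 highest or 3 lowest log2 ratios of a comparison; a few others were named after their values were seen. On simulated counts, which held counting noise and no spread between mice and so check the arithmetic and not the reliability of a call between 2 libraries, the calls recovered 100 of 100 genes changed 4-fold and 100 of 100 changed 8-fold in each injury comparison of microglia-like cells, and called 0 of 5221 (wild type) and 0 of 5389 (knockout-labelled) unchanged genes. How reads from near-identical copies were counted was not checked: 50-base words of the last 400 bases were shared for 63.8% (Ifi209), 43.6% (Oas1a), 19.1% (Ifit3), 13.3% (Ms4a4c) and 12.3% (Ifitm3). Positions were taken from the GENCODE annotation of GRCm38, which held 32158 of the 32285 gene identifiers. The pathway list of kinases and factors is not reported here. Alternatives covered the cell filter, doublets, clustering, scaling, prior, minimum, thinning depth and the genes and threshold that define strong cells.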

Additional observations from a re-analysis of the deposited data

Results flagged for a closer look

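Slfn5 had log2 ratios of opposite sign in 2 cell classes of the knockout-labelled pair. Its log2 ratio, injured against sham, was 3.07 in microglia-like cells, where it was at 2.27 CPM in sham and 92.7 CPM after injury. In endothelial-like cells it was -0.51, at 485 CPM in sham and 337 CPM after injury, which did not reach the threshold for a call. The value drew attention because the signs were opposite. The difference was not tested, as each group was 1 library.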

How the results depend on the processing

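Of the main values recomputed under the alternatives, 235 stayed within the limits set (1.5 times for a count, the counting interval for a share), 28 moved and 0 reversed. The counts of members called between injured and sham microglia-like cells were not among those that moved. Members called between border-associated macrophage-like and microglia-like cells moved most. Each count of called members below joins those higher and those lower. The shares of all genes called under the same settings are not given beside these counts, so nothing about the members is read from them. In wild-type injured cells the 3 became 7 with a mean over cells, 7 with a prior of 1 CPM, 5 without the top 1% of cells, 14 with a stricter cell filter and 5 at resolution 0.5. In knockout-labelled injured cells the 8 became 5 without the top 1% of cells, and 18 with interferon genes kept in clustering, at resolution 0.5 and with genes correlated with the Ifit genes left out. In knockout-labelled sham cells the 10 became 21 without a minimum and 6 without the top 1% of cells, and in wild-type sham cells the 13 became 8 without the top 1%. In endothelial-like cells of the wild-type sham library the 17 became 26 without a minimum. In macrophage or monocyte-like cells of the knockout-labelled injured library the 6 became 3 with correlated genes left out. Between injured microglia-like cells the 0 became 1 with a prior of 1 CPM. The share of strong cells in the wild-type injured library (4.10%) became 3.19% without doublet removal, 7.31% at 2 UMIs, 2.05% at 5 UMIs, 2.68% at a depth of 2000 UMIs, 6.44% at 5000 UMIs and 1.58% with Rsad2, Oasl1 and Usp18 as the defining genes. In the knockout-labelled injured library (5.21%) the same settings gave 4.10%, 9.24%, 3.33%, 3.97%, 8.69% and 1.93%, and the last gave 0% in wild-type sham. The cause of these moves was not tested. Leaving out shared barcodes, cluster 16 or the correlated genes was chosen after seeing the data. No paired analysis was possible because the groups share fewer than 2 replicate numbers, and no replicate could be left out; a test over the 2 pairs of sham and injured libraries, 1 for each genotype, was not run. Depth limits the sham values of low members and the small classes.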

Other observations

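Neutrophil-like cells, led by S100a9 and S100a8, had the highest summed level of the 39 genes of any cluster with at least 20 cells in a library. The summed level was 10136 CPM over 44 cells of the wild-type injured library, whose median depth was 1786 UMIs. The macrophage or monocyte markers Plac8 and Ly6c2 were also among the leading genes of this cluster. The share of its cells with neutrophil markers was 49.6%, and with macrophage or monocyte markers 28.4%. With interferon genes kept in clustering, the neutrophil-like cluster held 33 wild-type injured cells. Neither gene led it, and the shares were 69.9% and 13.7%. The part of monocyte-like cells in the summed level was not tested. Strongly induced microglia-like cells were also high in interferon-induced genes outside the set: Cxcl10 was at 323 CPM in cells with 0 Ifit1, Ifit2 and Ifit3 UMIs after thinning and 1983 CPM in strong cells of the wild-type injured library, and at 318 and 4128 CPM in the knockout-labelled one.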
